A study of Mus musculus with 12 samples.

Results

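The data are the 6 vehicle arrays of a mouse study with 12 arrays in all, chosen by their titles, which number ethanol-treated samples from 1 to 6. They give the state of the cervix at gestation day 15 in CD1 mice, an outbred strain, 48 h after an injection of ethanol of the volume used for the drug. The other 6 arrays came from dams given medroxyprogesterone acetate, a synthetic progestin, under the skin at 1 mg per dam, and they are not used here. No genotype, transgene or deletion is named for either group. Whether every array stands for a separate dam is not stated, so the spread between arrays may be biological, technical or both. The question is which genes, tissue layers and cell types give signal in this tissue before any progestin is added, and which genes differ most from one vehicle array to the next.

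The cervix closes the uterus during pregnancy and has to soften and open for birth. Its canal is lined by columnar, mucus-making cells and by a stratified squamous epithelium with basal, suprabasal and cornified layers. Below the epithelium lies a stroma of fibroblasts in collagen, elastic fibres and hyaluronan, with smooth muscle, vessels, nerves and resident immune cells. Progesterone keeps the tissue firm through its receptor, while estrogen drives epithelial growth, and in mice hyaluronan rises as birth nears.

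Each gene was read from 1 probe set, the one with the highest mean over the 12 arrays, and values are log2 of the deposited linear intensity. Of 18194 genes, 741 (4.07%) were high, with a value of at least 4 on every array and a mean of at least 10. A further 7445 genes (40.9%) were middle, at 4 or more on every array with a lower mean, and 8703 (47.8%) were at the floor, below 4 on every array. The remaining 1305 (7.17%) were mixed, above 4 on some arrays only, and the median gene had a mean of 3.77. These bands rank a gene's own probe set and do not compare amounts of RNA between genes, since probe sets bind with different strength. The ribosomal protein gene Rps16 shows why: it is used by every cell, and its probe set read 2.30 at the lowest, 2.30 at the median and 2.31 at the highest. Of 599 high genes with more than 1 probe set, 239 (39.9%) had another probe set at the floor. With the median over all probe sets of a gene in place of its brightest one, 298 genes were high. A floor signal therefore means that the chosen probe set saw nothing above background, not that the RNA is absent.

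The 6 arrays were alike in their totals, but the authors' processing scales arrays to each other, so this likeness says little about the samples. Between 8710 and 8922 genes reached 4 on an array, and the arrays' median intensities were 6.65 to 6.83 in linear units. Pearson's r of pairs of arrays, across 5855 genes with a mean of at least 6 that are not independent replicates, lay between 0.921 and 0.976 with a median of 0.960. No pair held identical values. The 3′ probe set of Gapdh, a glycolysis gene used as an array control, exceeded its 5′ probe set by 4.94 on the log2 scale on vehicle 1 and by 4.25 to 4.37 on the other 5 arrays. For beta-actin, another such control, the difference was smaller, at 0.71 on vehicle 1 and 0.44 to 0.57 on the other 5. Vehicle 1 to vehicle 4 were washed on fluidics station 1 and vehicle 5 and vehicle 6 on station 2. On vehicle 4, 228 genes lay at least 1 log2 unit below the median of the other arrays and 30 lay as far above it, the largest such departure of the 6 arrays.

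**Figure D1:**
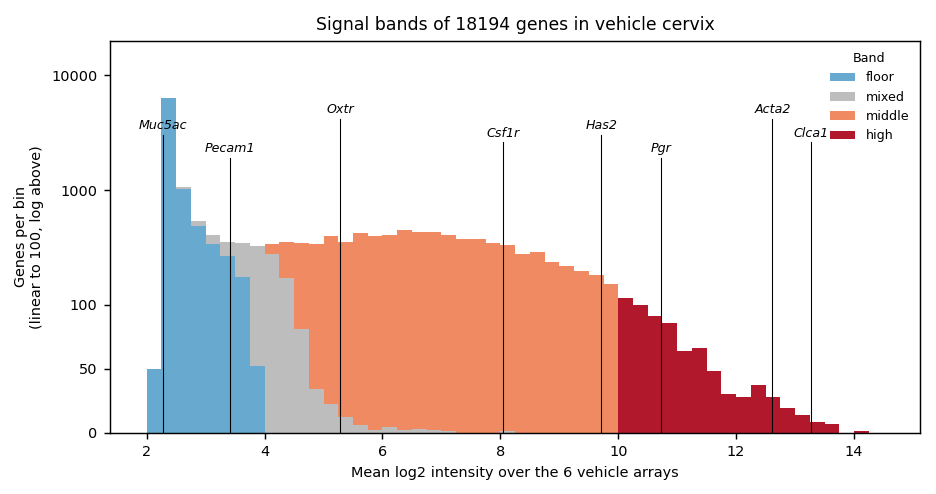
Number of genes per bin of mean log2 intensity over the 6 vehicle arrays, coloured by signal band, on an axis that is linear to 100 and logarithmic above. The floor holds 8703 of 18194 genes in a sharp peak below 4, and lines mark 8 named genes, from Muc5ac at 2.28 to Clca1 at 13.3.

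The brightest genes were those of protein synthesis and the cytoskeleton, with 2 secreted epithelial products among them. Malat1, a long nuclear RNA, led with 14.11 at the lowest, 14.19 at the median and 14.26 at the highest. Vdac1, the main channel of the outer mitochondrial membrane, had a mean of 13.7. Of the 25 genes with the highest mean, 10 encode ribosomal proteins, among them Rpl41, Rps29, Rpl35 and Rpl13a, and the translation factor Eef1a1 stood beside them. Actb, Tmsb4x, Tpm1 and Tpm2, which build or bind actin filaments, lay between 13.2 and 13.3. The secreted pair was Clca1, a goblet cell protein of mucus, and Wfdc18, a small secreted protein of the whey acidic protein family, with means of 13.3 and 13.1. Ctla2a, a protease inhibitor first found in T cells, had a mean of 13.6, whereas 11 of 12 measured T cell markers were at the floor.

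The genes that varied least were of mixed kinds. Rps2, a ribosomal protein gene, had the smallest SD among genes with a mean of at least 6 and below 13, with 12.01 at the lowest and 12.03 at the highest. Zfas1, a small nucleolar RNA host gene, Nme2, a nucleotide kinase gene, Tomm7, of the mitochondrial import pore, and Gsk3b, a kinase of Wnt signalling, were among the next 9, as were Nod1, a sensor of bacterial cell wall, Smarcb1, a chromatin remodelling subunit, Dennd6a, Mob4 and 4632427E13Rik. Among process lists, all 25 measured genes of the respiratory chain and ATP synthase and all 23 of the secretory pathway were high or middle, against 45.0% of all genes. Their list means moved across the 6 arrays by 0.17 and 0.22 log2 units.

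The stratified epithelium gave signal in its basal and suprabasal layers and much less in its cornified layer. All 15 measured basal markers were high or middle, against 45.0% of all genes. The median of their means was 9.10, against 3.77 over all genes. Krt5, the keratin of basal cells, had 12.73 at the lowest, 12.97 at the median and 13.17 at the highest, and its partner Krt14 had 12.20, 12.52 and 12.81. Both were lowest on vehicle 2 and highest on vehicle 4, and neither spread over as much as 1 log2 unit. Trp63, the transcription factor that sets the stratified fate, had a mean of 10.3, and Perp, a desmosome protein, one of 12.4. In bulk tissue, fewer cells of a type and less RNA per cell cannot be told apart, here and in all the results that follow.

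Of 19 suprabasal markers, 14 were high or middle, 73.7% against 45.0% of all genes. Krt13, the keratin of moist internal surfaces, had 10.45 at the lowest, 11.19 at the median and 11.37 at the highest. Krt6a, a keratin of rapidly renewing epithelium, and Dsp, the plakin that ties keratin to desmosomes, had means of 11.3 and 12.4. Krt10, a keratin of keratinising epithelium, spread most in the list, with 9.66 on vehicle 2 and 11.90 on vehicle 1. Its usual partner in skin, Krt1, was at the floor with a mean of 3.16. So keratins of internal surfaces and Krt10 gave signal while the probe set of Krt1 gave none.

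Of 21 cornified-layer markers, 11 were at the floor and 8 high or middle, shares of 52.4% and 38.1% against 47.8% and 45.0% of all genes. Sprr2f and Sprr1a, small proline-rich proteins of the cornified envelope, were the high members. Sprr2f, which estrogen is known to induce in the mouse uterus, had 11.53 at the lowest, 11.74 at the median and 11.96 at the highest. Sprr1a had 10.24, 11.59 and 12.05, with its low value on vehicle 2. Lor and Flg, the main proteins of the skin's horny layer, were at the floor with means of 2.33 and 2.39, as were Sprr3, Cnfn and Klk7. Ivl, an early envelope protein, had a mean of 4.92.

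The columnar epithelium was bright throughout. Of 19 measured markers, 18 were high or middle, 94.7% against 45.0% of all genes, with a median of means of 9.80. Wfdc2, a secreted protein of the whey acidic protein family made by many glandular epithelia, had 12.65 at the lowest, 13.05 at the median and 13.20 at the highest. Epcam, an adhesion protein of simple epithelia, and Krt18, a keratin of simple epithelia, had means of 12.4 and 12.1, and Krt8, the partner of Krt18, had 10.7. Cldn4, a tight junction protein, was the 1 member at the floor, at 2.47. Ehf, an epithelial transcription factor, had 10.92 at the lowest, 11.41 at the median and 11.68 at the highest.

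Of 18 measured genes of mucus secretion, 5 were high, 6 middle, 3 mixed and 4 at the floor, so that 61.1% were high or middle, against 45.0% of all genes. Muc5b, a gel-forming mucin, had 11.96 at the lowest, 12.24 at the median and 12.65 at the highest, while Muc5ac, the other gel-forming mucin of airway and stomach surfaces, had 2.28 on all 6 arrays. Agr2, which folds mucins in the endoplasmic reticulum, had a mean of 12.4, and its paralog Agr3 was at the floor. Among trefoil factors, small peptides secreted with mucus, Tff1 had 9.36 at the lowest and 11.07 at the highest, Tff2 was at the floor with a mean of 2.41, and Tff3 was mixed. Clca1 was highest on vehicle 5 at 13.62 and lowest on vehicle 1 at 12.90. Spdef, the transcription factor of goblet cells, had a mean of 7.21.

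Of 21 measured genes of mucosal defence, 3 were high, 6 middle and 10 at the floor. The shares high or middle (42.9%) and at the floor (47.6%) were close to those of all genes, 45.0% and 47.8%. Wfdc18 had 12.87 at the lowest, 13.09 at the median and 13.48 at the highest. Ltf, which encodes the iron-binding protein lactoferrin made by estrogen-exposed epithelium and by neutrophils, had 12.47, 12.92 and 13.02. Of the other 10 measured neutrophil markers, all were at the floor, including S100a8 at 2.46 and S100a9 at 3.04, and the eosinophil list had 4 of 5 at the floor. Pigr, which carries antibodies across epithelium, had a mean of 8.93, and Lyz1, a lysozyme gene, one of 9.44.

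**Figure D2:**
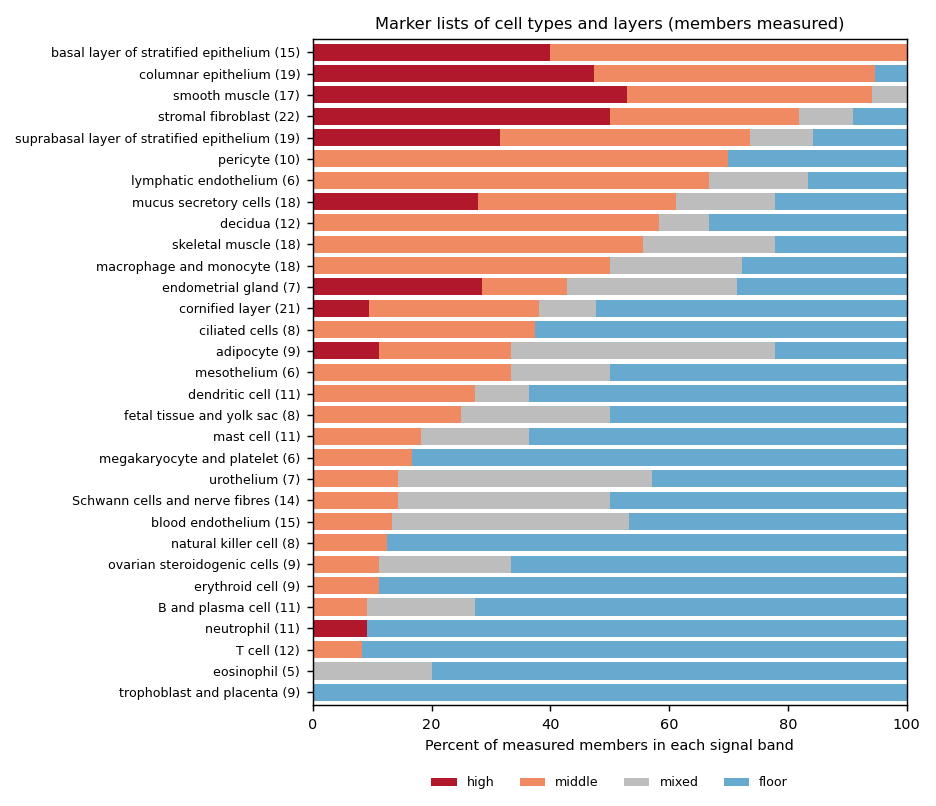
Share of measured members in each signal band for 31 marker lists of cell types and tissue layers, with the number measured in brackets, ordered by the share that was high or middle. Basal, columnar, smooth muscle and fibroblast lists stand at the top with at least 81.8% high or middle, and the trophoblast list at the bottom has all 9 members at the floor.

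Stroma and muscle filled the other bright lists. Members that were high or middle formed the majority in 10 of the 31 cell type lists, and in 5 when each gene was read as the median over its probe sets. Of 22 stromal fibroblast markers, 18 were high or middle, 81.8% against 45.0% of all genes, with a median of means of 9.87. The chains of fibrillar collagen led: Col1a2 had 12.30 at the lowest, 12.95 at the median and 13.23 at the highest, and Col3a1 had 12.03, 12.61 and 12.72. Both were lowest on vehicle 4 and highest on vehicle 2. Sparc, a collagen-binding matrix protein, had a mean of 12.7, and Postn, periostin, one of 10.8. Dcn, decorin, a small proteoglycan that coats collagen fibrils, had 9.07 at the lowest, 10.40 at the median and 10.88 at the highest. Clec3b and Pi16, markers of resting fibroblasts in other tissues, were at the floor.

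Of 29 genes of fibrillar collagen and crosslinking, 18 were high or middle, 62.1% against 45.0% of all genes. Lox, the lysyl oxidase that crosslinks collagen and elastin, had 5.01 on vehicle 4 at the lowest and 7.38 on vehicle 6 at the highest. Eln, elastin, had a mean of 8.18, and Tnc, tenascin C, had 4.90 at the lowest and 7.23 at the highest. Fmod, fibromodulin, a proteoglycan that binds the same fibrils as decorin, was among the 61 most variable genes, with 8.69 on vehicle 2, 8.18 on vehicle 3 and 4.79 on vehicle 4. Its second probe set was also highest on vehicle 2 and lowest on vehicle 4.

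Only 1 of the hyaluronan synthase genes gave signal. Has2 had 8.84 at the lowest, 9.69 at the median and 10.26 at the highest, whereas Has1 was at the floor with a mean of 2.32 and Has3 with 2.69. Has2 was lowest on vehicle 2 and highest on vehicle 4, the reverse of the collagen chains. Cd44, a hyaluronan receptor, had a mean of 7.22, and Vcan, versican, a hyaluronan-binding proteoglycan, one of 6.49. Of 23 metalloproteinases and inhibitors, 10 were high or middle and 9 at the floor, close to the shares of all genes. Timp2, an inhibitor, was the high member with a mean of 10.3. Mmp8, Mmp9 and Mmp13, collagenases and a gelatinase known from inflamed tissue, were at the floor.

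Of 17 measured smooth muscle genes, 16 were high or middle, 94.1% against 45.0% of all genes, with a median of means of 11.2. Mylk, the kinase that starts smooth muscle contraction, had 12.35 at the lowest, 12.88 at the median and 13.19 at the highest. Acta2, smooth muscle actin, had 12.06, 12.71 and 13.05, and Myh11, smooth muscle myosin, had 11.74, 12.43 and 12.80. All 3 were highest on vehicle 2 and lowest on vehicle 4, with vehicle 5 next to lowest. Among genes of contraction and labour, Gja1, the connexin of muscle gap junctions, had 11.10 at the lowest and 11.47 at the highest. Oxtr, the oxytocin receptor, had 4.05 on vehicle 4 and 5.20 to 5.83 on the others. Ptgs2, the inducible prostaglandin synthase, and Ptgfr, the prostaglandin F receptor, were at the floor with means of 2.56 and 2.40. Rxfp1, the relaxin receptor, had a mean of 8.16.

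Among vessel markers, the pericyte list held more middle members than the list of the vessel lining. Kcnj8, a potassium channel, and Rgs5, a regulator of G protein signalling, had means of 8.20 and 8.09. Among 10 pericyte markers, 7 (70%) were middle, while 45.0% of all genes were high or middle and 47.8% at the floor. Of 15 blood endothelial markers, 2 (13.3%) were middle, 6 mixed and 7 (46.7%) at the floor, with Pecam1 at 3.41, Cdh5 at 3.38 and Kdr at 3.55. Vessels are present in any cervix, so a list with few middle members does not show that its cells were missing. Lymphatic markers were middle for 4 of 6, with Lyve1, a hyaluronan receptor of lymphatic vessels, between 4.41 on vehicle 4 and 7.39 on vehicle 6. Of 14 Schwann cell and nerve markers, 2 were middle, Cnp and Mbp, and 7 were at the floor.

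Of 18 macrophage markers, 9 were middle, 4 mixed and 5 at the floor, so that 50% were middle or high, against 45.0% of all genes. C1qb, a complement chain made by macrophages, had 8.34 at the lowest, 8.83 at the median and 9.48 at the highest, and Csf1r, the receptor of their growth factor, had 7.11, 8.21 and 8.59. Adgre1 and Cd68, which also define the type, were at the floor with means of 2.92 and 3.12. Mast cell proteases were faint, with Cma1 between 4.19 and 6.75 and Mcpt4 between 3.34 and 5.88, both highest on vehicle 6, and Kit at the floor. T cells had 11 of 12 markers at the floor (91.7%), natural killer cells 7 of 8 (87.5%), and B and plasma cells 8 of 11 (72.7%). The share of all genes was 47.8%. Cd247, a signalling chain of T and natural killer cells, was the 1 T cell marker with signal, at 7.55, while Cd3e stood at 2.37. Cd74, the chaperone of class II molecules of antigen-presenting cells, was middle with a mean of 6.67.

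Among 16 steroid receptors and coregulators, 2 were high, 9 middle, 1 mixed and 4 at the floor. The share high or middle was 68.8%, against 45.0% of all genes. Pgr, the progesterone receptor, had 10.60 at the lowest, 10.73 at the median and 10.90 at the highest. Its 2 other probe sets above the floor had means of 8.30 and 5.25, and ran from 7.85 to 8.54 and from 4.79 to 5.87. Esr1, estrogen receptor alpha, had 9.72, 10.06 and 10.37, whereas Esr2, estrogen receptor beta, was at the floor with 2.34. Nr3c1, the glucocorticoid receptor, had a mean of 8.05. The list mean of the 11 receptors and coregulators with a mean of at least 4 moved by 0.12 log2 units across the arrays. Enzymes of local steroid metabolism moved far more, by 1.69. Hsd11b2, which inactivates glucocorticoids, was high at 10.31 on vehicle 4 and up to 11.77 on vehicle 2. Hsd11b1, which reactivates them, had 10.01, 9.57 and 9.29 on vehicle 1 to vehicle 3, 8.21 on vehicle 6, 6.81 on vehicle 5 and 6.04 on vehicle 4. Akr1c18, which breaks down progesterone, ran in a like order from 10.18 on vehicle 1 to 5.96 on vehicle 4. Hsd17b2, which inactivates estradiol, was at the floor with a mean of 2.41.

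Of 26 homeobox and other genes of position in the reproductive tract, 12 (46.2%) were high or middle and 11 (42.3%) at the floor, against 45.0% and 47.8% of all genes. Hoxa10 and Hoxa11, homeobox genes of the uterus and cervix, had means of 7.72 and 5.23, and Hoxa13, which is known from the vagina, was at the floor with 2.44. Hoxa10 had 6.87 on vehicle 4 at the lowest and 8.77 on vehicle 2 at the highest, and Hoxa11 had 4.14 and 6.73 on the same arrays. Runx1, a transcription factor of stratified and glandular epithelium among other tissues, had 10.65 at the lowest and 11.48 at the highest. Among 21 cell cycle genes, 13 (61.9%) were middle and 7 (33.3%) at the floor, against the same shares of all genes, 45.0% and 47.8%. Mki67, a member of that list, lay between 9.03 and 9.77.

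Most genes listed for tissues that a cervix should lack were at the floor. Of 65 measured genes of liver, brain, testis, retina, heart, pancreas, pituitary and the Y chromosome, 58 (89.2%) were at the floor, 7 mixed and 0 middle or high, against 47.8% at the floor over all genes. Alb of liver, Gfap of brain glia, Ins2 of pancreas and Prl of pituitary were at the floor. Xist, expressed from the inactive X chromosome of females, had 11.28 at the lowest and 11.69 at the highest. The Y chromosome list had 2 of 4 at the floor and 2 mixed. Sry, which sets male development, lay at the limit on every array, from 3.98 to 4.15, and Eif2s3y, a translation factor gene, had 4.02 on vehicle 1 and 2.39 to 2.44 on the others. The brain list had 8 of 11 at the floor and 3 mixed: Snap25, of synaptic vesicle release, reached 6.55 on vehicle 5, Gad2, which makes the transmitter GABA, 4.69 on vehicle 1, and Aqp4, a water channel, 5.25 on vehicle 4. The other mixed members were Cyp2e1 of the liver list, an enzyme that fat cells also express, at 8.94 on vehicle 5 and 2.38 on vehicle 4, and Myl3 of the heart list, a myosin light chain, at 4.83 on vehicle 5 and 4.38 on vehicle 1. Markers of trophoblast, the cells of the placenta, were at the floor for 9 of 9. The ovarian list had 6 of 9 (66.7%) at the floor. The decidua list had 7 of 12 (58.3%) middle, 1 mixed and 4 (33.3%) at the floor, against 45.0% of all genes high or middle. Its middle members include Hoxa10 and Hoxa11, given above as genes of uterus and cervix, so the count does not show decidua.

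Most genes with signal hardly moved between the arrays. Of 5855 genes with a mean of at least 6, 3844 (65.7%) had an SD under 0.25, and the median SD was 0.197 log2 units. An SD of at least 1 was found for 61 genes (1.04%). Upk1a, a urothelial plaque protein, was the last inside that limit with an SD of 1.02, and Ttn, the giant protein of striated muscle, the first outside it with 0.999. A second probe set with a mean of at least 4 was measured for 24 of the 61, and for 22 of these (91.7%) it was highest on the same array. The share was 38.5% of all 3197 genes with such a probe set. The 61 were picked for a wide spread and most of the 3197 spread little, so the choice alone favours a higher share. H2-D1 counts among the 22 (r = 0.999), though other probe sets of it, given below, ran the other way. The 61 genes were highest on vehicle 1 for 30, on vehicle 2 for 14, on vehicle 5 for 9, on vehicle 6 for 7, on vehicle 4 for 1 and on vehicle 3 for 0.

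The most common order among them put vehicle 1, vehicle 2 and vehicle 3 on top. It was shared by 28 of the 61 genes, and vehicle 4 and vehicle 5 were the lowest pair for 29. The 28 include secreted proteins, transporters and enzymes. Several are known products of glandular or luminal epithelium of the uterus, and 4 promoters are shown because these genes join a bright signal to a large spread. Each runs 5′ to 3′ on its gene's strand from 250 bases before the transcription start to 50 after it, from RefSeq on build GRCm38.p6, and capitals mark the letters AGGTCA on either strand, a core bound by many nuclear receptors. The letters TATAAA, of the TATA box, were searched on both strands as well, and so were the letters AGAACA, part of the element bound by the progesterone and glucocorticoid receptors. Neither was found in these 4 windows, which says only that these letters are not there.
Klk1, chr7:44225110-44225409, plus strand: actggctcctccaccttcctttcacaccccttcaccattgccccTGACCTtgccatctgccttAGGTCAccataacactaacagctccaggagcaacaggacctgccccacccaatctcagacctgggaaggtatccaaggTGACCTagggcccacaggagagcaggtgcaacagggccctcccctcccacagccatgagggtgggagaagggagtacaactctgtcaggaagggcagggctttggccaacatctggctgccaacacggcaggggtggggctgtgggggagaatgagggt
Cuzd1, chr7:131322243-131322542, minus strand: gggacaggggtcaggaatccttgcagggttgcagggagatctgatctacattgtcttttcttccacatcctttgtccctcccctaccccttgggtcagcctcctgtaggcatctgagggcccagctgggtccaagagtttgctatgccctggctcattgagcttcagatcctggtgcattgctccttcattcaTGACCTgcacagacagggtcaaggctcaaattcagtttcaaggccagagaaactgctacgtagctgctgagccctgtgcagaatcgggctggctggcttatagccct
Prap1, chr7:140093146-140093445, plus strand: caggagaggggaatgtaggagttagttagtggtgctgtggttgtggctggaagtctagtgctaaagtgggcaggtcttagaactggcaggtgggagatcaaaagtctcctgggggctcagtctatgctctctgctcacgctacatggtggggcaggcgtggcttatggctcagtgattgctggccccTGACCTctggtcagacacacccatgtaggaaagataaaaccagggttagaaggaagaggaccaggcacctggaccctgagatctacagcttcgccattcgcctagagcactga
Abcb1b, chr5:8797897-8798196, plus strand: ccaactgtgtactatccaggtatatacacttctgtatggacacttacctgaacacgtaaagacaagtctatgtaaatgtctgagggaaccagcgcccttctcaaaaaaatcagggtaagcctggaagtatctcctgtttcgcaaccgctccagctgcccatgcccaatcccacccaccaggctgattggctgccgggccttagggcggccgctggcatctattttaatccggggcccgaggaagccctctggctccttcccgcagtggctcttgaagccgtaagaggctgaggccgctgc

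Klk1 held 3 matches of AGGTCA or its complement, Cuzd1 and Prap1 1 each, and Abcb1b 0. Counted from the transcription start, with bases before it negative, the first base of the nearest match lay at -57 in Cuzd1, -63 in Prap1 and -109 in Klk1. Of 27025 promoters of this length, 16.0% hold AGGTCA on either strand, 14.2% TATAAA, and 5139 promoters AGAACA. Promoters were found for 22 of the 28 genes, and 8 of these held AGGTCA, 4 TATAAA and 3 AGAACA. These are matches of letters, not sites of binding.

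Cuzd1, known from the rat as an estrogen-responsive gene of the uterus, had 12.06, 11.12 and 11.08 on vehicle 1 to vehicle 3, 7.71 on vehicle 4, 4.96 on vehicle 5 and 8.97 on vehicle 6. Klk1, tissue kallikrein, a protease that frees kinins, had 12.43, 12.17, 11.88, 9.10, 6.13 and 8.98 in the same order of arrays. Prap1, a secreted protein of the pregnant uterus, had 13.73, 13.73, 13.58, 11.58, 9.52 and 12.67. All 3 were high together on the first 3 arrays and lowest on vehicle 5, with vehicle 6 closer to the top for Prap1 than for Klk1. Abcb1b, a drug efflux transporter, had 10.90 at the highest on vehicle 1 and 4.72 at the lowest on vehicle 5.

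Napsa, an aspartic protease, Sult1d1, a sulfotransferase, Sftpd, a surfactant lectin of mucosal defence, and Lcn2, which binds bacterial siderophores, went to the floor on vehicle 5. Napsa had 9.65 on vehicle 1 and 3.06 on vehicle 5, Sult1d1 9.06 and 2.83, and Sftpd 8.38 and 2.56. Lcn2 was highest on vehicle 2 at 8.44 and lowest on vehicle 5 at 2.51. Csf1, the growth factor of macrophages that the pregnant uterine epithelium makes, had 9.45, 9.57 and 8.50 on vehicle 1 to vehicle 3, against 6.73, 5.22 and 7.47 on vehicle 4 to vehicle 6. Its receptor Csf1r did not share this order: it was highest on vehicle 3 and vehicle 6. Aldh1a2, which makes retinoic acid, and Tgfb2, a growth factor of the TGF-beta family, had the same 3 arrays on top, with Tgfb2 at 11.84 on vehicle 1 and 8.93 on vehicle 5.

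The general columnar markers did not follow these genes. Epcam was lowest on vehicle 2 and highest on vehicle 4, and Krt18 likewise, with ranges of 12.03 to 12.64 and 11.76 to 12.26. On vehicle 5, where Cuzd1 and Klk1 were lowest, Wfdc2 was at its highest with 13.20. The columnar list as a whole moved by 0.55 log2 units over the 6 arrays.

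**Figure D3:**
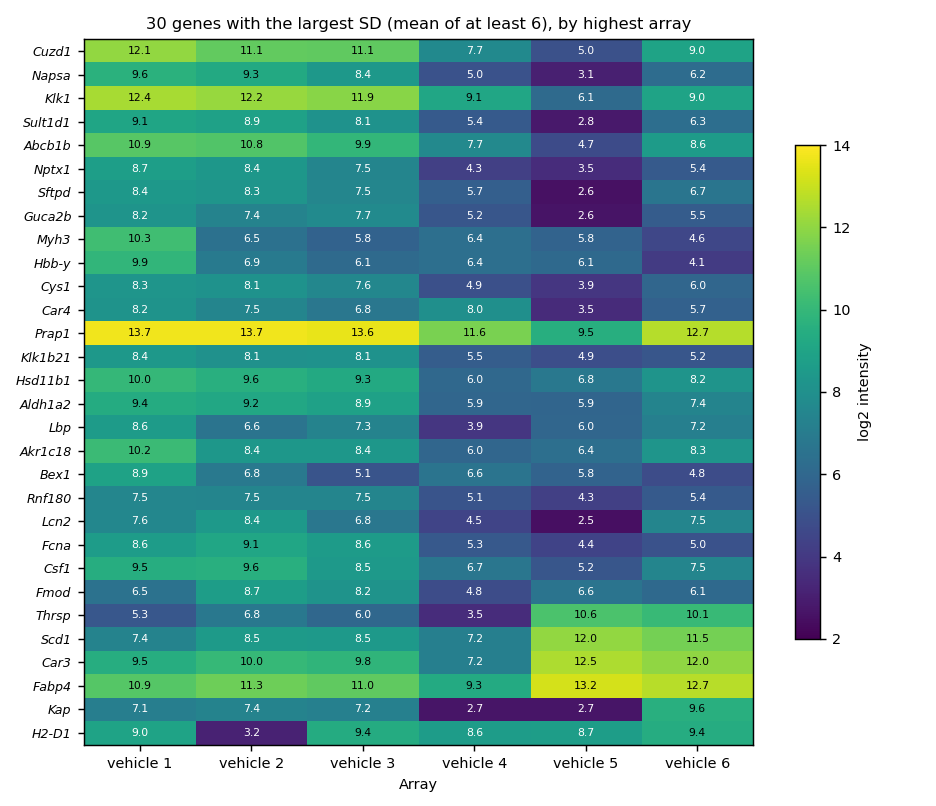
Log2 intensity on each vehicle array of the 30 genes with the largest SD among genes with a mean of at least 6, grouped by the array on which they were highest. Most rows that peak on vehicle 1 are also high on vehicle 2 and vehicle 3 and darken on vehicle 4 and vehicle 5, while Thrsp, Scd1, Car3 and Fabp4 brighten on vehicle 5 and vehicle 6.

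Fat storage genes ran in another order, with vehicle 5 on top and vehicle 6 second. This held for 7 of the 61 genes: Thrsp, Scd1, Car3, Fabp4, Lpl, Cdo1 and Fasn. Scd1, which desaturates fatty acids, had 12.04 on vehicle 5 and 11.48 on vehicle 6, with 7.18 to 8.54 on the others. Fabp4, the fatty acid carrier of fat cells and capillaries, had 13.25 and 12.72 on those arrays, with 9.32 to 11.35 on the others. Adipoq, a hormone made by fat cells, had 8.32 on vehicle 5, 6.78 on vehicle 6 and 2.66 on vehicle 4. The other arrays lay between, and vehicle 4 was lowest for each of Scd1, Fabp4 and Adipoq. Of 7 adipocyte markers at 4 or more on any array, 7 were highest on vehicle 5, though a marker could enter this count through vehicle 5 alone. The mean of the 4 bright enough to be used, minus its average over the arrays, was 2.15 on vehicle 5. It was 1.24 on vehicle 6 and -1.79 on vehicle 4.

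Vehicle 5 and vehicle 6 are also the arrays of fluidics station 2, so that station and tissue content cannot be told apart for these genes. A test of station 2 against station 1 within vehicle, by limma with Benjamini-Hochberg adjustment, called 1 of 9044 genes, 0.0111%. It was Slc36a2, an amino acid transporter known from brown fat, with 5.72 and 5.14 on vehicle 5 and vehicle 6, against 2.47, 2.47, 2.50 and 2.47 on vehicle 1 to vehicle 4. It was higher by 2.96 log2 units (SE 0.17, adjusted p = 0.0192). The call was lost without any 1 of vehicle 1, 2, 3, 5 or 6, and with an intensity trend and robust variance set together. Without adjustment, 393 genes had a p under 0.05. Fasn, which makes fatty acids, differed by 2.23 on the log2 scale (SE 0.19, adjusted p = 0.0649), Scd1 by 3.86 (SE 0.47, adjusted p = 0.179) and Thrsp, a regulator of fat synthesis, by 4.96 (SE 0.87, adjusted p = 0.508). Retn and Cox8b, a fat cell hormone and a respiratory chain subunit of brown fat and muscle, were above 4 on the same arrays as Slc36a2, and Ucp1, the heat-making protein of brown fat, reached 4.57 on vehicle 5 only. Cox8b and Ucp1 were chosen after their values were seen. With 2 arrays against 4, a difference missed here is not shown to be absent.

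Several genes known from embryonic muscle, bone and brain, and 1 embryonic globin, were brightest on vehicle 1. Myh3, embryonic myosin heavy chain, had 10.31 on vehicle 1 and 4.58 to 6.46 on the others, and Hbb-y, an embryonic globin, had 9.88, with 4.11 to 6.90 on the others. Hba-x and Hbb-bh1, the other embryonic globins measured, were below 4 on every array, vehicle 1 included, as were 8 of 9 erythroid genes. Ttr, a thyroid hormone carrier of yolk sac and liver, had 8.76, with 3.56 to 4.49 elsewhere. Dmp1, a matrix protein of bone, had 8.35, with 2.42 to 3.68 elsewhere. For Myh3, Hbb-y, Ttr and Dmp1, vehicle 1 was highest and vehicle 2 was second. Another probe set of Hbb-y had 5.82 on vehicle 1 and was below the floor on the others, at 2.38 to 2.49. Igf2, a growth factor expressed from the paternal copy in the fetus, had 8.17 on vehicle 1, 5.03 on vehicle 2 and 2.81 to 3.49 on the others.

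Ibsp of bone, Col2a1 of cartilage and Dcx of young neurons, all chosen after their values were seen, were above 4 on vehicle 1 only, at 7.22, 6.67 and 6.83. In a list of imprinted and fetal growth genes drawn up after earlier values of these data were known, 14 of 16 members with signal were highest on vehicle 1. Peg3 was among them with 9.997, and 6.91 to 7.72 on the others. Signal here means 4 or more on at least 1 array, so a member could enter through vehicle 1 alone, as Dcx did. All 16 reached 4 on vehicle 1, 15 on vehicle 2 and 10 to 12 on the others. Vehicle 1 was also highest for 30 of the 61 variable genes. Trophoblast markers were at the floor on this array as on the rest. Afp, made by yolk sac and fetal liver, was not raised there: it had 7.12 on vehicle 1 and 7.43 on vehicle 4, with 6.02 to 6.95 on the others. Vehicle 1 is the array with the largest 3′ to 5′ difference of Gapdh. Its part in these values was not tested.

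Skeletal muscle genes varied across all arrays. The list mean was 1.34 above its average on vehicle 1 and lowest on vehicle 3, at -1.14. Of 14 members at 4 or more on at least 1 array, 11 were highest on vehicle 1 and 12 lowest on vehicle 3. Members could pass that limit through vehicle 1 alone. Myh1, a fast adult myosin, had 8.47 on vehicle 1, 4.87 on vehicle 3 and 6.76 to 7.92 on the others. Its second probe set read 3.57 on vehicle 3, below the floor, and 5.98 to 6.79 on the others. This adult isoform therefore gave signal on all 6 arrays by its brightest probe set only. Tnnc2, the calcium sensor of fast muscle, had 5.58 on vehicle 3 at the lowest and 8.39 on vehicle 1 at the highest. Myh2, another adult myosin, was highest on vehicle 6 at 7.74. Ckm, muscle creatine kinase, was at the floor.

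Genes known from intestinal lining were brightest on vehicle 4. Zg16, a lectin of colonic mucus, had 11.78 on vehicle 4, 6.28 on vehicle 6 and 2.38 to 3.20 on the others. Its other probe sets had 10.35 and 8.38 on vehicle 4, and 2.69 and 2.67, below the floor, on vehicle 6. Lypd8, which keeps flagellated bacteria from the colon wall, had 10.81 on vehicle 4, 5.34 on vehicle 6 and 2.44 to 2.55 on the others. Muc3, an intestinal membrane mucin, had 9.76 on vehicle 4 and 2.33 to 3.12 elsewhere. These 3 genes had the widest ranges of the 27 genes that ran from below 4 on some array to at least 8 on another. Saa1, an acute-phase protein that gut epithelium also makes, and Spink1, a trypsin inhibitor, were at 8.78 and 8.70 on vehicle 4 and at the floor on the other 5.

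A list of 31 intestinal genes, some of which were added because their values had been seen, had 16 at 4 or more on vehicle 4 and 3 to 6 on the other arrays. Slc26a3, a chloride exchanger, Guca2a, guanylin, and Car1, a carbonic anhydrase, chosen from it after their values were seen, were at 7.66, 7.12 and 7.27 on vehicle 4 and below 4 elsewhere. Vil1 and Cdx2, which define intestinal epithelium, were at the floor on every array. Guca2b, the partner of guanylin, did not share this pattern: it had 8.22 on vehicle 1 and 5.20 on vehicle 4, in the order of Cuzd1 and Klk1. Without vehicle 4, 18 genes ran from below 4 to at least 8, and without vehicle 5, 16 did.

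**Figure D4:**
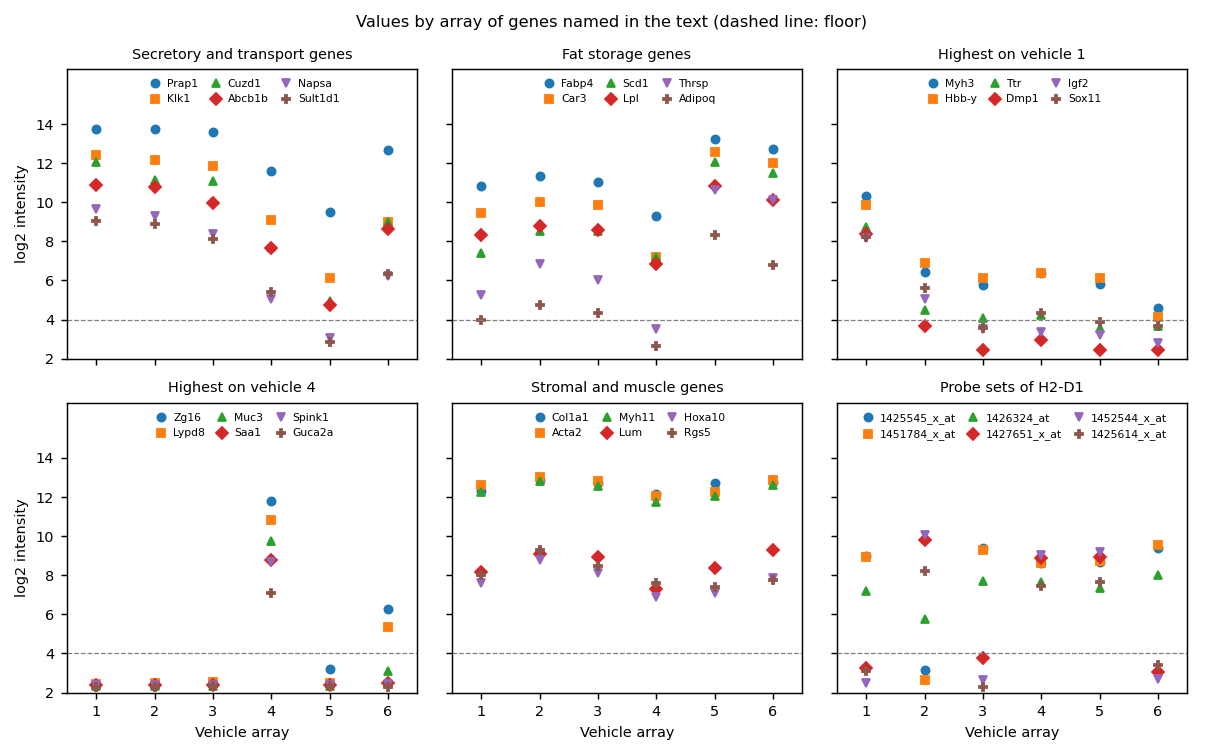
Log2 intensity by vehicle array for 6 sets of genes or probe sets, with a dashed line at the floor of 4. Secretory genes are lowest on vehicle 5, fat genes highest on vehicle 5 and vehicle 6, and the genes of the upper right and lower left panels stand out on vehicle 1 or vehicle 4, while stromal and muscle genes differ less between arrays and the H2-D1 probe sets split into opposite patterns.

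Stromal and stratified epithelial lists stood on opposite sides of their averages on vehicle 2 and vehicle 4. The fibroblast list was 0.45 above its average on vehicle 2 and lowest on vehicle 4, at -0.76. Smooth muscle was 0.52 above on vehicle 2 and at -0.69 on vehicle 4, and 16 of its 17 genes were lowest there. The suprabasal list ran the other way, at -0.62 on vehicle 2 and 0.31 on vehicle 4, and 13 of 16 of its members with signal were lowest on vehicle 2. Columnar markers were at -0.34 on vehicle 2 and 0.21 on vehicle 4. Values are relative within an array, so that more RNA from 1 tissue layer can lower the values of another. Of 43 cell type and process lists with at least 3 members used, 16 had a range of 1 log2 unit or more, and without vehicle 4 the count was 9.

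**Figure D5:**
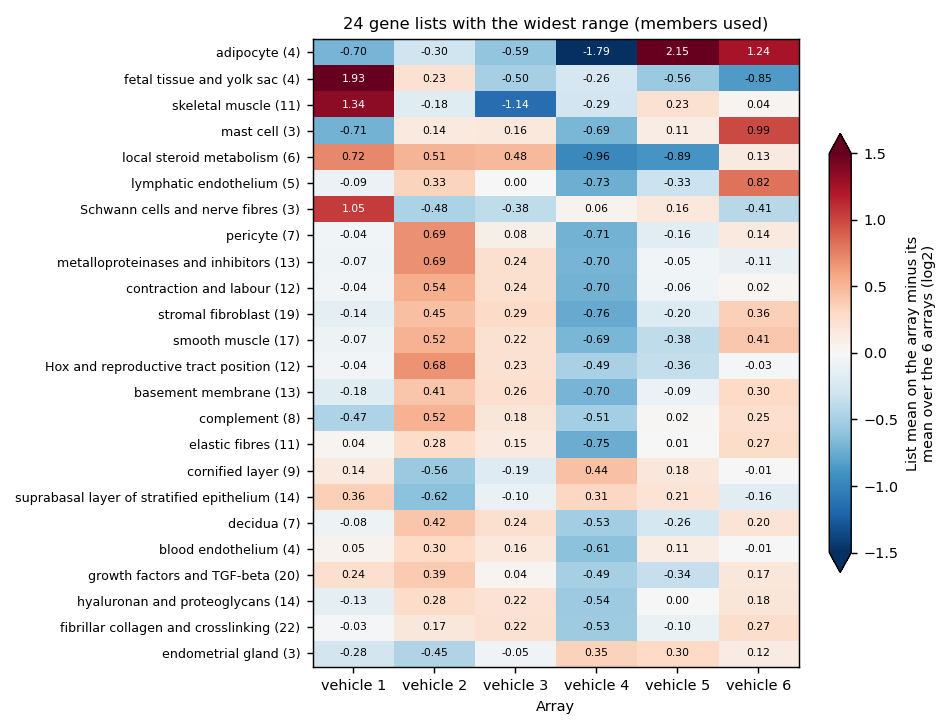
Mean of each gene list on each vehicle array minus its mean over the 6 arrays, in log2 units, for the 24 cell type and process lists with the widest range among those with at least 3 members used, with the number of members used in brackets. The adipocyte list spans 3.94 log2 units from vehicle 4 to vehicle 5, and the fibroblast, smooth muscle, basement membrane, elastic fibre and fibrillar collagen lists are all lowest on vehicle 4.

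The first principal component of the 5855 genes held 47.2% of the variance among the 6 arrays. It set vehicle 2 at 22.7 against vehicle 4 at -22.7 and vehicle 5 at -18.7. Vehicle 1 lay at 8.95, vehicle 3 at 8.72 and vehicle 6 at 0.91. The genes with the largest weights on this component were Napsa, Cuzd1, Kap, Sult1d1 and Klk1, on the side of vehicle 2, vehicle 1 and vehicle 3. The second component held 22.3% and had Myh3 and Hbb-y on 1 side, with vehicle 1 at -18.1 and vehicle 4 at -10.1. Klk1, Cuzd1, Guca2b, Napsa, Sult1d1 and Abcb1b were also among the largest weights on that side. Thrsp, Scd1, Car3 and Fabp4 lay on the other, with vehicle 5 at 11.4, vehicle 6 at 11.1 and vehicle 2 at 6.12. So the secretory genes weighed on both axes of spread, and embryonic and fat genes joined them on the second.

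Some genes stood apart on single arrays. Kap, a kidney androgen-regulated protein also made in the pregnant uterus, had the largest SD of the 5855 genes, 2.79, just ahead of Thrsp, with 9.56 on vehicle 6, 7.14 to 7.39 on vehicle 1 to vehicle 3, and 2.70 on both vehicle 4 and vehicle 5. Egr1, an immediate early transcription factor, had 8.44 on vehicle 6 and 5.17 to 6.06 on the others, and Fos, chosen after its values were seen, had 7.38 on vehicle 6 and 4.28 to 5.30 elsewhere. Itln1, an intestinal and mesothelial lectin, had 7.29, 8.82 and 8.49 on vehicle 1, vehicle 3 and vehicle 6 and was below 4 on the other 3. BC018473 was at 8.42 on vehicle 5 and at the floor elsewhere.

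H2-D1, a class I antigen-presenting gene that is highly polymorphic between strains, changed with the probe set. Its brightest probe set read 3.16 on vehicle 2 and 8.63 to 9.42 on the others. Another of its probe sets read 10.05 on vehicle 2, 9.05 on vehicle 4 and 9.18 on vehicle 5, and 2.47 to 2.69 on vehicle 1, vehicle 3 and vehicle 6. So each array had signal on at least 1 of the 2 probe sets, and vehicle 4 and vehicle 5 had it on both. Its other probe sets above the floor followed one of these patterns or the other. No genotype is named for these arrays, and the cause of the split was not tested. Igha, the heavy chain of immunoglobulin A, ran from 6.28 on vehicle 6 to 9.20 on vehicle 2, and its second probe set had the same highest and lowest arrays.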

How the data were processed

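Total RNA (100 ng) was amplified over whole transcripts and hybridised as biotin-labelled cDNA to Affymetrix arrays, per the labels' protocols. The deposited values are linear intensities of 45101 probe sets, which the authors made with GCRMA per the submitters' processing notes (version not given in the sources used here). Signal is thus corrected for probe sequence, scaled between arrays and summarised per probe set, and weak signal gathers at a floor. Fluidics stations come from the instrument records, per the file headers.

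Log2 was taken with no pseudocount. Of the probe sets, 34958 had 1 gene symbol, 932 several and 9211 were not listed, and 34754 were matched to RefSeq. Each of 18194 genes was read from its brightest probe set, by the mean of all 12 arrays. All columns were mapped to samples (0 left over). Array number limits the precision.

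The 6 vehicle arrays were described with no contrast to the progestin. Stations were compared with limma 3.58.1 (R 4.3.3), two-sided, over 9044 genes above 4 on at least 2 arrays. On simulated data it recovered 50%, 82%, 88% and 100% of 50 genes changed by 1, 2, 3 and 4 log2 units, with 12 false calls among 9044 genes. All these genes were changed together, with independent noise, which eases the adjustment. Recovery in the real data may therefore be lower. The p-values measure only the spread between these arrays.

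Members and lists were chosen with earlier results of these data known. Genes named were the 25 with the highest mean, the 30 with the largest SD and the 10 with the smallest, the 20 with the widest run from floor to bright, leading, variable and defining floor members of each list, a set of cervix genes and genes called between stations. Others, among them Cox8b, Cdo1, Fasn, Fos, Gapdh, Ivl, Peg3, Postn, Rps16, Spdef, Tff3 and Vcan, were added after their values were seen. Alternatives were the median over probe sets, other limits, repeated scaling and leaving out arrays. The progestin arrays and coordinates other than those of promoters were not used here.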

Additional observations from a re-analysis of the deposited data

Results flagged for a closer look

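Of 177 genes, list profiles and array measures examined, 30 (16.9%) had 1 array standing apart from the other 5, by the gap to its nearest neighbour as a share of the whole range. Chance alone sets apart about 1 in 20 such groups, and many of these genes were named because of their spread.

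On vehicle 1, 10 stood apart at the high end. They were Myh3 at 10.31, Peg3 at 9.997, Ttr at 8.76, Dmp1 at 8.35, Ibsp at 7.22, Dcx at 6.83 and Col2a1 at 6.67, of embryonic muscle, imprinting, yolk sac, bone, young neurons and cartilage. The others were Gad2 at 4.69, Eif2s3y at 4.02, just above the floor, and the difference between the 3′ and 5′ probe sets of Gapdh, at 4.94.

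On vehicle 4, 9 genes stood apart at the high end, most of them known from intestinal lining. They were Lypd8 at 10.81, Muc3 at 9.76, Saa1 at 8.78, Spink1 at 8.70, Slc26a3 at 7.66, Car1 at 7.27, Guca2a at 7.12, Tff3 at 5.95 and Aqp4 at 5.25. Oxtr stood apart at the low end there, at 4.05.

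On vehicle 2, H2-D1 at 3.16, Krt13 at 10.45 and Mbp at 4.77 stood apart at the low end, and Kdr at 4.09 at the high end, though Kdr was below 4 on the other 5 arrays. On vehicle 5, BC018473 at 8.42 and Ucp1 at 4.57 stood apart, and on vehicle 6, Egr1 at 8.44, Fos at 7.38, Upk1b at 5.45 and Sry at 4.15, where the other arrays had 3.98 to 4.02.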

How the results depend on the processing

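No paired analysis was possible because the description holds 1 group. The count of floor genes stayed within 1.5 times of 8703 in every setting run (8009 to 10178, and 8733 to 8848 with 1 array left out). High genes numbered 741, and 1491 with the limit at 9, 350 at 11 and 298 with the median over probe sets (733 to 743 with 1 array left out). Cell type lists mostly high or middle numbered 10, 5 with that median, and 10 to 11 with 1 array left out. Variable genes numbered 61, and 109 with a mean of at least 5, 15 with at least 8, 169 with an SD of at least 0.75 and 26 with at least 1.5 (64 to 78 with 1 array left out). Floor to bright genes numbered 27, and 12 with the median over probe sets, 50 with bright at 7 and 9 with bright at 9, and 16 to 27 with 1 array left out, the lowest without vehicle 5. Lists with a range of 1 or more numbered 16, 10 over all members, and 9 to 18 with 1 array left out, the lowest without vehicle 4. Leaving out vehicle 1 and vehicle 4 together, like leaving out 1 array for the lists, was chosen after seeing the data. Then 57 genes were variable (43 of them shared with the 61), 10 ran from floor to bright and 6 lists had that range. The station test called 1 gene, 3 with no filter, 0 with an intensity trend and robust variance (375 at an unadjusted p under 0.05), and 0 to 3 with 1 array left out. Without vehicle 4 it called 3, and without each of the other 5 it called 0, with 294 to 404 at an unadjusted p under 0.05. With the median over probe sets, 44 of 83 gene means moved by 1 SD or more and 39 by less. With repeated scaling, all 83 moved by less, but the deposited values were already scaled between arrays, so that setting could change little. Leaving out 1 or 2 of the 6 arrays cannot shift a mean by 1 SD, so those settings could not decide this. The cause of these differences was not tested. Signal over background limits what can be said of the 8703 genes at the floor.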

Other observations

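Of 29 Wnt and hedgehog genes, 13 (44.8%) were middle, 6 mixed and 10 (34.5%) at the floor. The shares of all genes were 45.0% high or middle and 47.8% at the floor. The Wnt inhibitors Sfrp2 and Dkk3 had means of 8.63 and 7.59, and the receptor Fzd1 one of 8.07. The hedgehog ligands Shh, Ihh and Dhh were all at the floor, while Ptch1, the hedgehog receptor, had 7.59 at the lowest, 7.93 at the median and 8.43 at the highest. Sfrp2 was brighter on vehicle 1 and vehicle 2, with 9.59 and 9.62, than on the other arrays, with 7.73 to 8.73. Among 31 genes of growth factors and TGF-beta signalling, 18 were high or middle, 58.1% against 45.0% of all genes. Igfbp4 and Igfbp7, which bind insulin-like growth factors, led with means of 11.4 and 10.8. Both were highest on vehicle 2 and lowest on vehicle 4. Of 15 genes of cholesterol synthesis, 12 were high or middle, 80% against 45.0% of all genes. Hmgcs1, which acts early in the pathway, had 11.33 at the lowest and 11.96 at the highest.

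Of 22 chemokines, 8 (36.4%) were middle and 12 (54.5%) at the floor. The shares of all genes were 45.0% high or middle and 47.8% at the floor. Ccl2, Cxcl2 and Cxcl10 were among the 12 at the floor. Cxcl5, which draws neutrophils, had 8.64, 9.03 and 8.35 on vehicle 4 to vehicle 6 and 6.999, 5.98 and 6.80 on vehicle 1 to vehicle 3, the reverse of Cuzd1 and Klk1. The neutrophil markers S100a8 and S100a9 were at the floor on all 6 arrays. In the endometrial gland list, Cxcl15, a chemokine of lung and uterine glands, had 11.78 at the lowest, 12.01 at the median and 12.43 at the highest. Prss29, a protease of uterine glands, had 7.32 on vehicle 1 and 6.498 on vehicle 2 and was at the floor on the other 4, and Prss28 was at the floor on all. Of 8 markers of ciliated cells, 5 were at the floor, 62.5% against 47.8% of all genes, with Foxj1 at 2.37. Upk1a, of the urothelial plaque, had 7.98 on vehicle 6 and 5.20 on vehicle 1, and Upk1b was above the floor on vehicle 6 only, at 5.45.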
